A study of Mus musculus with 3 samples.

Results

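Orm1, Orm2 and Orm3, which encode the orosomucoids, Aox3, which encodes an aldehyde oxidase, and Itih5, which encodes an inter-alpha-trypsin inhibitor heavy chain, were followed in organoids of the mouse submandibular salivary gland. They are 5 of the 32285 genes in the deposited matrices, matched by symbol, and all 5 had UMIs (unique molecular identifiers, each counted as 1 captured RNA molecule) in every library. They were selected because measured values of these same libraries set them apart, so their differences between libraries are given as descriptions and support nothing further.

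Organoids from 4 C57BL/6 mice aged 8 to 12 weeks were grown in Matrigel, irradiated on day 5 of culture and collected on day 11, 6 days later. The proton group received 7 Gy with organoids placed in the plateau of a proton beam, the photon group 7 Gy of photons, and the control group no radiation. All groups grew in the same medium, which held EGF, FGF2, insulin, Wnt3a and R-spondin1 conditioned media, the kinase inhibitor Y27632 and 1 µM dexamethasone, a synthetic glucocorticoid that the controls therefore received as well. Propidium iodide negative cells were sorted, 45000 for each sample, and measured by 10x Genomics 3' single-cell RNA sequencing, with 1 library per group. The organoids were pooled ahead of sequencing, and which cells came from which animal was not labelled. Every difference compares single libraries without replication, and ranges in parentheses are 95% intervals that cover counting error only.

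Orosomucoids, also called alpha-1-acid glycoproteins, are secreted lipocalins that bind lipophilic ligands in plasma. They are classical acute phase proteins, made mostly in liver, and their genes are induced by cytokines of the interleukin 6 and interleukin 1 families together with glucocorticoids, through C/EBP factors and the glucocorticoid receptor. Aox3 is a molybdenum cofactor enzyme that oxidises aldehydes and nitrogen heterocycles, best known from mouse liver. Itih5 belongs to the heavy chains of inter-alpha-trypsin inhibitors, which bind the matrix glycan hyaluronan.

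The 3 Orm genes are neighbouring copies on the forward strand of chromosome 4, at chr4:63344560-63365878 on GRCm38, in the order Orm1 (ENSMUSG00000039196), Orm3 (ENSMUSG00000028359) and Orm2 (ENSMUSG00000061540). In GENCODE M21 the reference transcripts of Orm1 and Orm2 were 91.0% identical, those of Orm1 and Orm3 86.1% and those of Orm2 and Orm3 88.0%. Over the last 300 bases, nearest to where a 3' library reads, the identity was 97.7%, 90.7% and 91.4% in the same order. The last 60 coding bases before the stop codon show how the copies can be told apart, with capitals at the 6 positions where they differ.
Orm1 (chr4:63347988-63348047, forward strand): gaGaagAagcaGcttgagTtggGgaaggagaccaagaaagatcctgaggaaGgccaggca
Orm2 (chr4:63365703-63365762, forward strand): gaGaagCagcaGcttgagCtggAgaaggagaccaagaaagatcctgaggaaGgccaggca
Orm3 (chr4:63359335-63359394, forward strand): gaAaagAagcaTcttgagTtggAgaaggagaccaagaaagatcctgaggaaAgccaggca
A stretch of 90 bases is shared exactly with another copy in 31.8% of the positions within the last 300 bases of Orm1 and likewise of Orm2, and at 0 positions of Orm3. At 50 bases the shares are 58.6% for Orm1, 62.5% for Orm2 and 10.4% for Orm3. How the authors' counting treated reads that fit both copies was not given in the sources used here, so the division of counts between Orm1 and Orm2 is uncertain, and the sum of the 3 genes is given beside each copy.

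RefSeq promoter windows (GRCm38.p6, 250 bases before to 50 after the start site) were found for 4 of the 5 genes, Orm2, Orm3, Aox3 and Itih5. The Orm2 and Orm3 windows were 86.2% identical. They are shown because the copies differ in the motifs they hold. Each window was searched on both strands for a C/EBP motif (TTGCNNAA), a STAT motif (TTCNNNGAA), the core of the glucocorticoid receptor palindrome (ACANNNTGT) and its half-site (AGAACA), which occur in 10.8%, 8.33%, 6.83% and 18.9% of the 32544 windows of all genes. Capitals mark the matches in the 150 bases before each start site.
Orm2 (chr4:63362299-63362448, forward strand): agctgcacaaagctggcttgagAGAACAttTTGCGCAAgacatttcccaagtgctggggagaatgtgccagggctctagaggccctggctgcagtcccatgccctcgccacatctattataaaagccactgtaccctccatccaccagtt
Orm3 (chr4:63356008-63356157, forward strand): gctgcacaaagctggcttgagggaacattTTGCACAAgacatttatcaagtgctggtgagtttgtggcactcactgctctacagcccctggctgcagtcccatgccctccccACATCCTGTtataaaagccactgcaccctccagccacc
Both copies held a C/EBP match, at -120 to -113 in Orm2 and at -121 to -114 in Orm3. Orm2 held a half-site at -128 to -123, and Orm3 a palindrome core at -38 to -30. The Aox3 and Itih5 windows held 0 matches of the 4 motifs. A match of letters is a description of the window and shows no binding.

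Kept cells numbered 13956 in the proton, 15041 in the photon and 13219 in the control library, with 36692939, 46936995 and 39514768 UMIs and medians of 2223, 2808 and 2757 UMIs per cell. Mitochondrial genes held 1.80%, 2.23% and 3.29% of UMIs and ribosomal protein genes 20.3%, 18.6% and 16.5%. Pairs of libraries shared 49 to 56 cell barcodes, 0.326% to 0.424% of either library. The cells carried the keratins of duct epithelium: 6 basal duct markers summed to 2430, 4253 and 3719 CPM (UMIs per 1000000 UMIs of the kept cells) in proton, photon and control, and 8 luminal duct markers to 3066, 5208 and 3688 CPM. Acinar markers were low, at 48.3, 41.3 and 58.1 CPM. Markers of hepatocytes, the main source of orosomucoids in the body, were near 0: 8 hepatocyte markers summed to 2.34, 1.66 and 1.11 CPM, and Alb, Serpina1a, Fga and Ahsg had 0 UMIs in all libraries. Markers of fibroblasts, immune cells, endothelium, adipocytes and neural cells each summed to between 0.380 and 2.21 CPM, and erythroid markers to 0. Cycling markers summed to 226, 302 and 65.4 CPM and squamous markers to 440, 422 and 271 CPM. The part of these differences, and of the mitochondrial and ribosomal shares, in the results was not tested.

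Orm1 was lower in both irradiated libraries. It had 1204 UMIs or 32.8 CPM (31.0 to 34.7) in proton and 2098 UMIs or 44.7 CPM (42.8 to 46.7) in photon, against 6463 UMIs or 164 CPM (160 to 168) in control. The proton level was 4.98-fold (4.69 to 5.31) and the photon level 3.66-fold (3.48 to 3.85) below control. In control Orm1 ranked 1054 by CPM among 21891 genes with a UMI, and in proton 4936 among 21923.

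Orm3 followed the same order. Its level was 16.9 CPM (15.6 to 18.3) in proton and 22.6 CPM (21.3 to 24.01) in photon, against 113 CPM (110 to 117) in control. That is 6.69-fold (6.15 to 7.29) below control in proton and 5.01-fold (4.68 to 5.36) in photon. Proton lay below photon for both copies, with ratios of 0.734 (0.683 to 0.788) for Orm1 and 0.749 (0.677 to 0.827) for Orm3.

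Orm2 was near the limit of what these libraries show, with 16 UMIs in proton and 20 in photon against 66 in control, or 0.436, 0.426 and 1.67 CPM. It was 3.83-fold (2.19 to 7.09) below control in proton and 3.92-fold (2.35 to 6.83) in photon. Between proton and photon the ratio was 1.02 (0.496 to 2.08), so a difference in either direction was not detectable at this depth. The 3 transcripts have nearly equal lengths (775, 775 and 773 bases), but more of the Orm1 and Orm2 ends than of the Orm3 end is shared with another copy, so the division of the UMIs describes these counts and not the relative amounts of the transcripts. Orm1 gave 65.4% (63.2 to 67.6) of the Orm UMIs in proton and 66.0% (64.3 to 67.6) in photon, against 58.7% (57.8 to 59.7) in control, and Orm3 gave 33.7%, 33.4% and 40.7%. The proton and photon mixes overlapped within counting error and held a smaller share of Orm3 than the control mix. The 3 genes summed to 50.2 CPM (47.9 to 52.5) in proton and 67.7 CPM (65.4 to 70.1) in photon, against 278 CPM (273 to 284) in control.

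Aox3 (ENSMUSG00000064294, chr1:58113130-58200698, forward strand, GRCm38) stood at 19.7 CPM (18.3 to 21.2) in proton and 28.2 CPM (26.7 to 29.8) in photon, against 136 CPM (132 to 140) in control. It was 6.89-fold (6.37 to 7.46) below control in proton and 4.82-fold (4.54 to 5.12) below control in photon, and its proton level was 0.699 (0.638 to 0.766) of its photon level. The order of the libraries was that of Orm1 and Orm3. Aox3 spans 87569 bases, against 3604 for Orm1, and the treatment of reads in introns was not given in the sources used here. A small nucleolar RNA gene, Gm24548, lies inside Aox3 on the opposite strand and was not analysed here.

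Itih5 (ENSMUSG00000025780, chr2:10153571-10256529, forward strand, GRCm38) had 153 UMIs or 4.17 CPM (3.54 to 4.89) in proton and 213 UMIs or 4.54 CPM (3.95 to 5.19) in photon, against 866 UMIs or 21.9 CPM (20.5 to 23.4) in control. It was 5.26-fold (4.42 to 6.28) below control in proton and 4.83-fold (4.15 to 5.64) in photon. The ratio of proton to photon was 0.919 (0.742 to 1.14), an interval that includes equal levels.

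**Figure D1:**
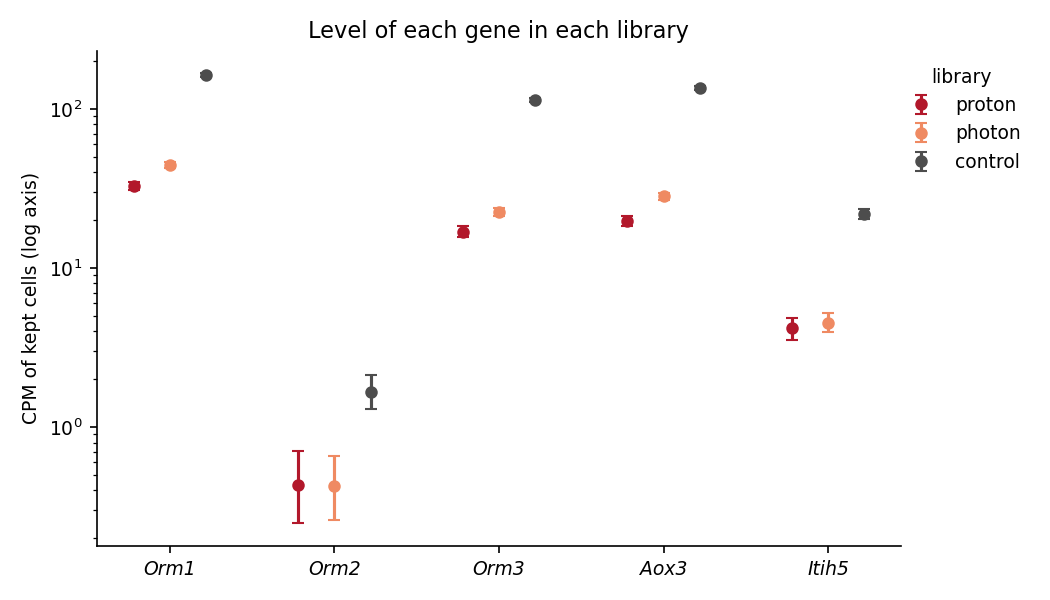
Level of each of the 5 genes in CPM (y axis, log scale) in the proton, photon and control libraries, with 1 point per library and bars for the 95% Poisson interval. Each gene is highest in control, and the proton and photon intervals overlap for Orm2 and Itih5.

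Orm1, Orm3 and Aox3 had a mean of at least 25 CPM over proton and control, the level from which genes were counted, and all 3 were at least 1.5-fold lower in proton, as were 14.9% of the 5870 genes at that level, while 10.8% were at least 1.5-fold higher. Between photon and control the same 3 were lower, as were 8.19% of 5790 genes (474), with 5.75% (333) higher, counts that became 268 and 441 when the libraries were scaled by the median of ratios. Orm3 in both irradiated libraries and Aox3 in proton lay under 25 CPM and were counted only because of their control levels, and the genes were selected on this contrast, so nothing is read from these counts. From the lowest ratio up, Aox3 was number 3, Orm3 number 4 and Orm1 number 11 in proton, and Orm3 number 2, Aox3 number 3 and Orm1 number 4 in photon. Orm2 and Itih5 did not reach the level in any comparison. Between proton and photon only Orm1 reached it, and it stayed within 1.5-fold, where 16.3% of 5814 genes were lower in proton and 22.7% higher. The median log2 ratio of all genes at that level was 0.00 for proton and -0.11 for photon against control, and 0.08 for proton against photon.

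Detection was compared at equal depth. Cells with at least 2000 UMIs were each thinned to 2000, which left 7939 proton, 10891 photon and 9620 control cells and left out 6017, 4150 and 3599. Orm1 was then found in 4.75% (4.29 to 5.24) of proton and 6.34% (5.89 to 6.81) of photon cells, against 24.9% (24.004 to 25.7) of control cells. Unthinned, over all kept cells, it was found in 6.86%, 10.0% and 27.5%. Cells with an Orm1 UMI held on average 1.20, 1.27 and 1.47 of them in proton, photon and control. With so few UMIs per cell, the share follows the mean and the count in positive cells stays near 1, so fewer expressing cells and a lower level per cell cannot be told apart.

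Orm3 was found at 2000 UMIs in 2.48% (2.15 to 2.85) of proton and 2.90% (2.59 to 3.23) of photon cells, against 20.0% (19.2 to 20.8) of control cells, and without thinning in 3.76%, 5.63% and 21.9%. Aox3 was found in 2.76% (2.41 to 3.14) of proton and 3.92% (3.56 to 4.30) of photon cells, against 21.2% (20.3 to 21.98) of control cells, and without thinning in 4.35%, 6.77% and 24.8%. Control was highest for both, and the proton and photon intervals overlapped for Orm3 and were apart for Aox3. Itih5 was rarer, with 0.630% (0.468 to 0.829) in proton and 0.670% (0.526 to 0.842) in photon, against 3.83% (3.45 to 4.23) in control, and 1.03%, 1.25% and 4.62% without thinning. Orm2 was found in 5, 5 and 34 cells, or 0.0630%, 0.0459% and 0.353% (0.0860%, 0.113% and 0.439% without thinning).

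With no cell type known to lack these genes, the clusters in which they were lowest among those with at least 100 cells at 2000 UMIs, picked after their values were seen, are given beside the library shares, which lie above them by that choice. They are no measure of free RNA. For Aox3 this was cluster 7, led by Sprr2f and Sprr2d. At 2000 UMIs Aox3 was found there in 0 of 152 proton cells (allowing up to 2.40%), 0.311% of 322 photon cells and 2.25% of 222 control cells. The median depths were 3442, 4107 and 5353 UMIs. For Orm1 it was cluster 3 in proton, with 0.704% of 142 cells, followed by cluster 4 with 1.35% of 2518 cells, and cluster 2 in photon and control, with 3.07% of 5344 and 4.19% of 1003 cells, at median depths of 1114, 2564, 3552 and 4199 UMIs over all kept cells of each.

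Orm-positive cells were common in control and sparse in the irradiated libraries. A UMI of any Orm gene was found in 6.70% (6.16 to 7.27) of proton and 8.41% (7.90 to 8.95) of photon cells, against 37.3% (36.4 to 38.3) of control cells. Cells without a UMI of Orm1, Orm3 or Aox3 made up 90.9% of proton and 88.5% of photon cells, against 50.9% of control cells. Cells with all 3 of these genes numbered 1 of 7939 in proton and 13 of 10891 in photon, against 190 of 9620 in control, or 0.0126%, 0.119% and 1.98%. At least 5 Orm UMIs were held by 1, 13 and 119 cells.

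The Orm copies were found together in the same cells. Among cells with Orm3, Orm1 was found in 22.8% (17.2 to 29.3) in proton and 29.4% (24.5 to 34.8) in photon, against 38.1% (35.9 to 40.3) in control. Among cells without Orm3 the shares were 4.29% (3.85 to 4.76), 5.65% (5.21 to 6.10) and 21.6% (20.7 to 22.5). The pair of intervals was apart in each library. Reads that could belong to either copy may enter such pairs, and their part was not tested. Of the 34 control cells with Orm2, 52.9% (35.1 to 70.2) had Orm1 and 52.9% (35.1 to 70.2) had Orm3, while the 5 proton and 5 photon cells with Orm2 were too few to give a share.

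Aox3 and the Orm genes were also found together. Among cells with Aox3, Orm1 was found in 9.13% (5.67 to 13.8) in proton, 13.3% (10.3 to 16.9) in photon and 28.1% (26.1 to 30.1) in control, against 4.62% (4.17 to 5.12), 6.05% (5.60 to 6.52) and 24.01% (23.1 to 24.99) of cells without it. Orm3 was found in 3.65% (1.59 to 7.07), 10.3% (7.59 to 13.6) and 25.1% (23.2 to 27.1) of cells with Aox3, against 2.45% (2.12 to 2.82), 2.60% (2.30 to 2.92) and 18.6% (17.7 to 19.5) of cells without it. The Orm3 intervals overlapped in proton, and the other pairs of intervals were apart. Within cluster 0 of control Orm1 was found in 29.0% (27.0 to 31.1) of cells with Aox3 and 27.8% (26.7 to 29.0) of cells without it. Orm3 was found there in 26.2% (24.2 to 28.2) and 22.2% (21.2 to 23.3), with intervals apart. In cluster 0 of photon the Orm1 intervals overlapped, and Orm3 was found in 18.7% (13.1 to 25.4) and 8.90% (7.58 to 10.4). In cluster 1 of proton the intervals of both Orm genes overlapped. Orm1 intervals were apart in cluster 6 of photon. There Orm1 was in 16.25% (8.95 to 26.2) of 80 cells with Aox3 and 2.61% (1.77 to 3.71) of those without. Orm3 intervals were apart in cluster 2 of photon, at 4.17% (1.54 to 8.85) and 0.712% (0.501 to 0.979). They were also apart in cluster 5 of photon, at 17.2% (5.85 to 35.8) and 3.78% (2.96 to 4.75). Beyond the cases given here, the intervals compared inside clusters overlapped.

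Itih5 was found more often in cells with Aox3. Aox3 was found in 8.00% (2.22 to 19.2) of 50 proton cells with Itih5, 21.9% (13.1 to 33.1) of 73 photon cells and 34.2% (29.4 to 39.3) of 368 control cells. In cells without Itih5 it was found in 2.73% (2.38 to 3.11), 3.80% (3.45 to 4.18) and 20.6% (19.8 to 21.5). The intervals were apart in photon and control and overlapped in proton. Orm1 was found in 6.00%, 4.11% and 19.8% (15.9 to 24.3) of cells with Itih5, against 4.74%, 6.35% and 25.1% (24.2 to 26.0) of cells without it, and its intervals overlapped in each library. Within cluster 0 of control, Aox3 was likewise in 34.99% (29.9 to 40.3) of cells with Itih5 and 24.4% (23.5 to 25.4) of those without.

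Fkbp5, a co-chaperone of the glucocorticoid receptor and a classical target of it, stood at 119, 92.8 and 187 CPM in proton, photon and control. Orm3 was found in 4.68% (3.66 to 5.88) of proton cells with Fkbp5 against 1.98% (1.65 to 2.35) of those without, in 5.68% (4.61 to 6.91) against 2.40% (2.10 to 2.74) in photon, and in 26.3% (24.7 to 28.0) against 17.2% (16.3 to 18.2) in control. Orm1 was found in 6.51% (5.30 to 7.89) against 4.35% (3.86 to 4.87) in proton, 9.67% (8.29 to 11.2) against 5.74% (5.27 to 6.23) in photon, and 29.8% (28.1 to 31.5) against 22.7% (21.7 to 23.8) in control. Both Orm genes were thus found more often in cells with Fkbp5 in each library, with intervals apart. Aox3 was found in 3.32% (2.47 to 4.37) against 2.63% (2.25 to 3.05) in proton, 4.41% (3.47 to 5.51) against 3.83% (3.45 to 4.24) in photon, and 22.02% (20.5 to 23.6) against 20.8% (19.8 to 21.8) in control, and these intervals overlapped in each library. Itih5 was found in 0.542%, 0.121% and 3.83% of cells with Fkbp5 and in 0.650%, 0.769% and 3.82% of cells without it.

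Inside single clusters the Orm3 shares with and without Fkbp5 were 6.13% (4.71 to 7.82) and 3.12% (2.53 to 3.80) in cluster 1 of proton, 13.3% (10.2 to 16.8) and 8.67% (7.24 to 10.3) in cluster 0 of photon, and 28.0% (26.3 to 29.8) and 20.9% (19.8 to 22.01) in cluster 0 of control. The direction was that of the whole libraries, and the photon intervals overlapped. The Orm1 shares were 8.27% (6.62 to 10.2) and 6.73% (5.87 to 7.67), 18.9% (15.3 to 22.8) and 16.4% (14.5 to 18.5), and 31.5% (29.7 to 33.3) and 26.5% (25.3 to 27.7) in the same clusters. For Orm1 the intervals were thus apart in control and overlapped in proton and photon. Clusters 4 in proton and 2 in photon were led by cell cycle genes. There Orm3 was found in 0 of 222 (allowing up to 1.65%) and 0.600% of 500 cells with Fkbp5, against 0.523% and 0.826% of cells without it. In cluster 2 of control it was found in 3.45% (0.947 to 8.59) of 116 cells with Fkbp5, against 0.902% (0.390 to 1.77) of 887 without. Orm3 was low in these clusters, and the intervals with and without Fkbp5 overlapped in each.

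Krt14, the keratin of basal duct cells, divided the members. Orm1 was found in 3.42% (2.93 to 3.96) of proton cells with Krt14 against 7.06% (6.15 to 8.05) of those without, in 5.30% (4.84 to 5.79) against 10.8% (9.51 to 12.3) in photon, and in 23.5% (22.6 to 24.5) against 30.3% (28.2 to 32.4) in control. Orm3 was found in 1.73% (1.39 to 2.13) against 3.79% (3.12 to 4.55), 2.03% (1.75 to 2.35) against 6.66% (5.62 to 7.83), and 18.1% (17.3 to 19.0) against 27.5% (25.5 to 29.6) in the same order. Both Orm genes were found less often in cells with Krt14. Aox3 went the other way in control, with 22.4% (21.5 to 23.4) of cells with Krt14 against 16.0% (14.4 to 17.8) of cells without it, while in proton (2.66% against 2.93%) and photon (3.95% against 3.77%) its intervals overlapped. Krt14 itself stood at 816, 2100 and 1536 CPM in proton, photon and control. Inside clusters, Orm1 with and without Krt14 was at 5.60% (4.67 to 6.66) and 8.80% (7.57 to 10.2) in cluster 1 of proton. In cluster 0 of photon it was at 16.1% (14.1 to 18.2) and 19.2% (15.9 to 22.7), and in cluster 0 of control at 27.2% (26.1 to 28.3) and 32.3% (29.9 to 34.8). The Orm1 intervals overlapped in photon and in every other cluster compared. Orm3 intervals were apart in cluster 1 of proton, 5 of photon and 0 of control, and overlapped elsewhere.

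**Figure D2:**
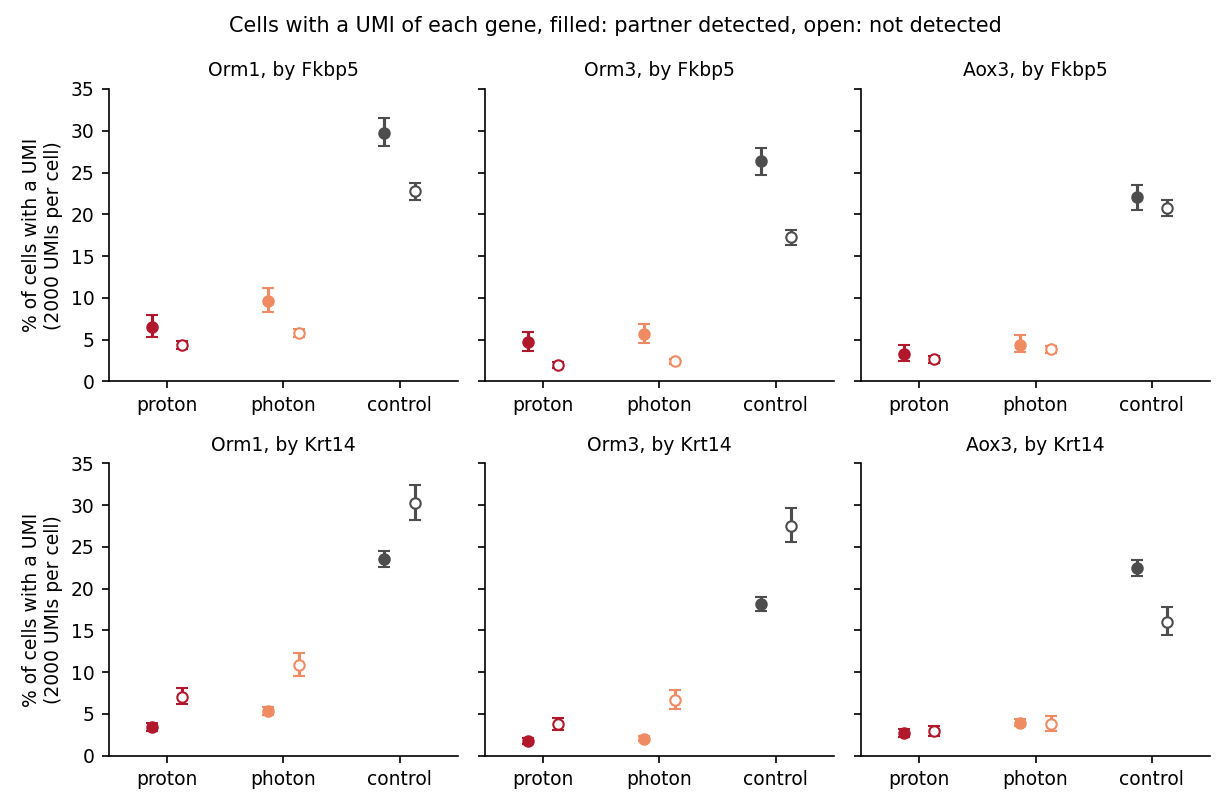
Share of cells with a UMI of Orm1, Orm3 or Aox3 (y axes, percent of cells thinned to 2000 UMIs) in the proton, photon and control libraries. Filled points are cells with a UMI of Fkbp5 (upper row) or Krt14 (lower row), open points are cells without it, and bars are exact 95% binomial intervals. Orm3 is higher with Fkbp5 and lower with Krt14 in all 3 libraries, while Aox3 in control is higher with Krt14.

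With Mki67, a proliferation marker at 44.1, 37.4 and 11.0 CPM in proton, photon and control, Orm1 was found in 1.35% (0.543 to 2.75), 3.49% (2.17 to 5.28) and 10.8% (5.71 to 18.1) of cells, against 4.99%, 6.50% and 25.03% of cells without it. Aox3 was found in 1.15%, 1.66% and 2.70% of cells with Mki67, against 2.87%, 4.05% and 21.4% of cells without it. Both genes were thus found less often in cells with Mki67 than without it in each library, with intervals apart. In control 111 cells had Mki67, and 3 of them had Aox3. With Isg15, an interferon-stimulated gene at 680, 1267 and 49.2 CPM, Orm1 was found in 4.25% (3.71 to 4.84), 5.70% (5.23 to 6.21) and 18.9% (16.2 to 21.9) of cells, against 5.61% (4.80 to 6.51), 9.02% (7.82 to 10.3) and 25.4% (24.5 to 26.3) of cells without it. Among cells without an Isg15 UMI, Orm1 was lower in proton and photon than in control. A cell without an Isg15 UMI may still express the gene, and the mix of clusters was not held fixed in this comparison. The part of interferon-stimulated genes in the Orm1 difference was not tested.

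With Krt8, a luminal keratin at 367, 435 and 223 CPM, Aox3 was found in 1.77% (1.35 to 2.28), 2.52% (2.10 to 2.99) and 18.5% (17.1 to 19.9) of cells, against 3.48% (2.97 to 4.05), 5.09% (4.55 to 5.69) and 22.4% (21.4 to 23.4) of cells without it, and Orm1 in 4.44%, 5.16% and 25.02% against 4.98%, 7.32% and 24.8%. With Cdkn1a, a p53 target at 186, 316 and 158 CPM, Orm1 was found in 4.74%, 7.74% and 25.1% of cells, against 4.75%, 5.51% and 24.8% of cells without it, and Aox3 in 2.42% (1.80 to 3.16), 3.14% (2.62 to 3.72) and 16.0% (14.4 to 17.6) against 2.88% (2.47 to 3.35), 4.38% (3.91 to 4.89) and 22.6% (21.7 to 23.6). The Aox3 intervals with and without Cdkn1a overlapped in proton and were apart in photon and control.

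All cells were clustered together without the 5 members, the listed and marker genes and the cell cycle and interferon genes, which gave 9 clusters. Several were mostly of 1 library (1 and 4 of proton, 2 of photon, 0 of control with photon), so such a cluster may be the library and not a cell type, and cluster sizes are not compared. Orm3, Aox3 and Orm1, which took no part in the clustering, led cluster 0 by fold over all other cells. Of its 12257 cells 8486 were of control, and the genes were selected on that contrast, so the lead supports nothing further. Values are given for clusters with at least 100 cells in a library, and 6 clusters (0, 2, 3, 5, 6 and 7) met this in all 3 libraries.

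In cluster 0 the 3 Orm genes summed to 229 CPM (170 to 303) in 102 proton cells and 217 CPM (208 to 227) in photon, against 348 CPM (342 to 355) in control. Aox3 stood there at 74.9 CPM (42.8 to 122) in proton and 72.7 CPM (67.1 to 78.6) in photon, against 171 CPM (166 to 176) in control. The ratios to control in proton and photon were 0.658 and 0.624 for the Orm sum, where the whole libraries gave 0.180 and 0.243. For Aox3 they were 0.439 and 0.426, where the whole libraries gave 0.145 and 0.207. Cluster 1, which held 7038 proton and 257 photon cells, had Orm sums of 78.2 CPM (74.3 to 82.2) and 75.2 CPM (55.8 to 99.1).

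Cluster 5, led by Sorbs2, Cst6, Fn1, Hp and Ltf and rich in luminal duct markers, had Orm sums of 28.2 CPM (22.8 to 34.5) in proton and 68.8 CPM (63.1 to 74.9) in photon, against 358 CPM (332 to 387) in control. The ratio to control was 0.0786 (0.0627 to 0.0977) in proton and 0.192 (0.171 to 0.216) in photon, the lowest of the 6 clusters in proton. Its control cells held as much Orm as those of cluster 0 within counting error, but little Aox3, which stood at 1.80, 7.93 and 27.1 CPM in proton, photon and control.

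Cluster 6, led by Igfbp2, Klhl29 and Apoe and rich in basal duct markers, held more Aox3 beside its Orm genes than cluster 5. Basal duct markers summed to 5214 CPM there and to 6620 CPM in cluster 7, where control had high Orm beside Aox3. In control cluster 6 the Orm sum and Aox3 were equal within counting error, at 0.897 (0.652 to 1.23) Orm UMIs per Aox3 UMI. Aox3 stood at 78.9 CPM (60.9 to 101) in proton and 52.9 CPM (46.6 to 59.8) in photon, against 127 CPM (102 to 157) in control, while the Orm genes summed to 54.6, 31.6 and 114 CPM. Here the proton level lay above photon for both, with ratios of 1.49 (1.12 to 1.97) for Aox3 and 1.73 (1.21 to 2.43) for the Orm sum. In cluster 5 the same ratios were 0.227 (0.0802 to 0.522) and 0.410 (0.325 to 0.511).

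In cluster 7 Orm1 stood at 24.4 CPM (14.0 to 39.7) in proton and 23.9 CPM (16.6 to 33.2) in photon, against 136 CPM (116 to 157) in control. Orm3 was found there as 1, 3 and 30 UMIs and Aox3 as 0, 3 and 14 UMIs in proton, photon and control, the 0 allowing no fold. Cluster 2, led by Vim and cell cycle genes, was low in all libraries, with Orm sums of 23.4, 23.4 and 31.0 CPM and Aox3 at 7.79, 15.2 and 25.4 CPM. Cluster 3, of cells with few UMIs (median 965) and the highest median mitochondrial share (7.93%), had Orm sums of 15.9, 11.5 and 47.3 CPM and Aox3 at 27.6, 17.8 and 111 CPM. Its Aox3 level in control was thus high beside its Orm level.

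**Figure D3:**
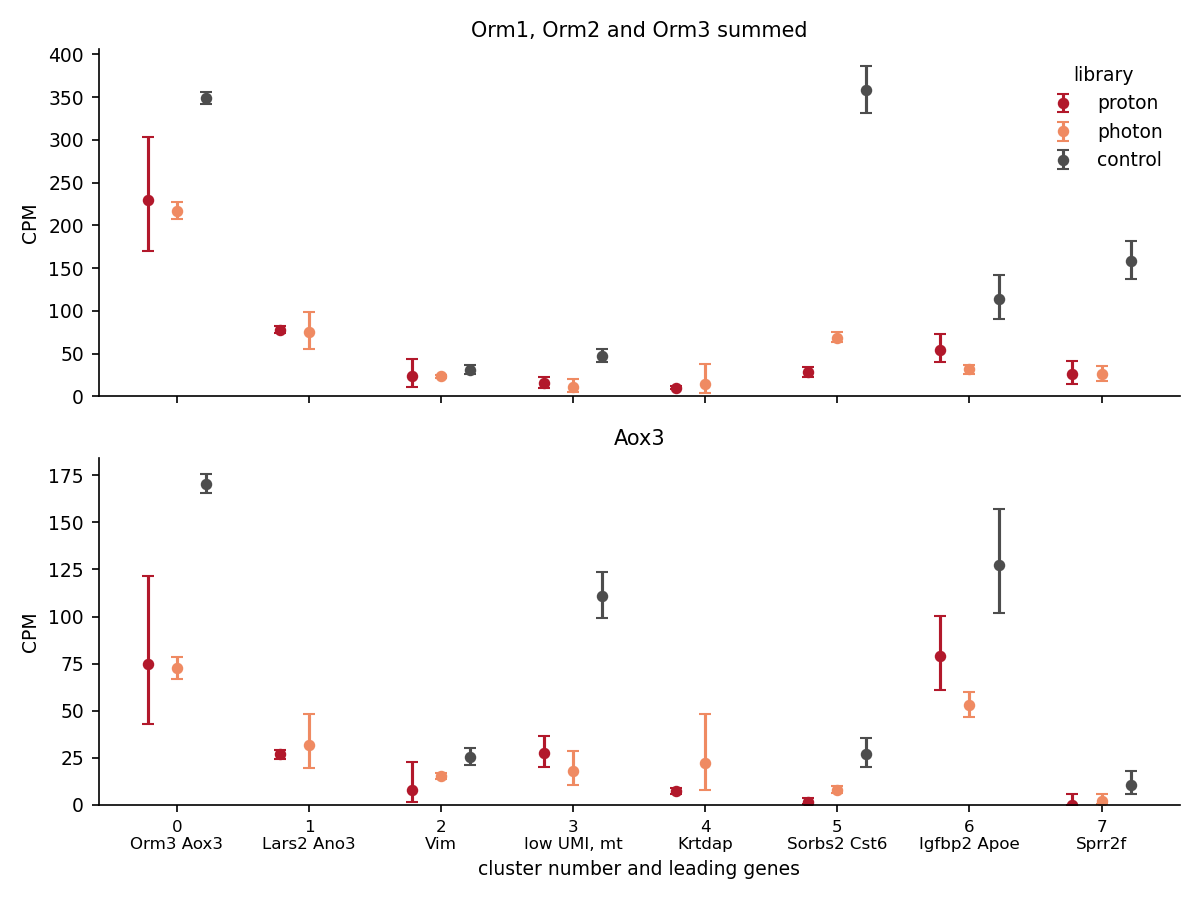
CPM of the 3 Orm genes summed (upper panel) and of Aox3 (lower panel) in clusters 0 to 7 (x axis, with leading genes) for the proton, photon and control libraries, with bars for 95% Poisson intervals; clusters with fewer than 100 cells in a library have no point there. Control is highest in each of the 6 clusters present in all libraries, and clusters 5 and 7 have high Orm with low Aox3 in control.

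The Orm sum and Aox3 lay below control in both irradiated libraries in all 6 of those clusters. The intervals of the ratio lay wholly below 1 in 6 of 6 clusters for both in photon, and in 5 of 6 for the Orm sum and 6 of 6 for Aox3 in proton. With the 6 clusters weighted equally in each library, the Orm sum was 2.80-fold lower in proton and 2.79-fold lower in photon than in control, where the whole libraries gave 5.55-fold and 4.11-fold. Aox3 was then 2.47-fold and 2.80-fold lower, where the whole libraries gave 6.89-fold and 4.82-fold, and Itih5 2.13-fold and 3.33-fold lower, where they gave 5.26-fold and 4.83-fold. With equal weights proton no longer lay below photon for Aox3, and both were alike for the Orm sum. No interval was computed for these values, which leave out clusters 1 and 4 with 50.4% and 26.3% of proton cells. Clusters 0 and 2, with 102 and 108 proton cells, weigh as much as larger ones. The equal-weight values therefore do not stand for the whole proton library. Because most control cells fall in cluster 0, which these genes lead, a different mix of cells and a lower level within cells cannot be told apart by this weighting.

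The proportion of Orm to Aox3 varied more between clusters than between libraries. Per Aox3 UMI there were 2.54 (2.33 to 2.77), 2.40 (2.25 to 2.56) and 2.05 (1.98 to 2.12) Orm UMIs over whole proton, photon and control libraries. In cluster 5 there were 15.7 (6.93 to 43.8), 8.68 (6.66 to 11.5) and 13.2 (9.91 to 18.0), and in cluster 7 of photon and control 12.7 (4.02 to 64.1) and 14.6 (8.53 to 27.3). In cluster 6 there were 0.692 (0.463 to 1.03), 0.597 (0.485 to 0.733) and 0.897 (0.652 to 1.23), and in cluster 3 0.574 (0.344 to 0.941), 0.647 (0.274 to 1.46) and 0.427 (0.347 to 0.523). Within each library the proportion thus differed between clusters beyond counting error.

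The mix of Orm copies differed between clusters as well. In control Orm1 made up 58.0% (57.0 to 59.0) of Orm UMIs in cluster 0 and 56.3% (52.4 to 60.1) in cluster 5, but 85.4% (79.8 to 89.9) in cluster 7 and 81.2% (73.9 to 87.3) in cluster 2. In photon it made up 61.6% (59.4 to 63.9), 65.6% (61.4 to 69.6), 92.1% (78.6 to 98.3) and 76.1% (72.2 to 79.7) in clusters 0, 5, 7 and 2. In proton cluster 4, led by Krtdap and cell cycle genes, it made up 87.0% (79.2 to 92.7), and in proton cluster 1 63.3% (60.8 to 65.8). In cluster 6 it made up 73.3% (58.1 to 85.4), 78.1% (70.7 to 84.5) and 66.7% (55.1 to 76.9) in proton, photon and control. The Orm1 share was thus above that of cluster 0 with intervals apart in clusters 2 and 7 of photon and control and in cluster 6 of photon.

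**Figure D4:**
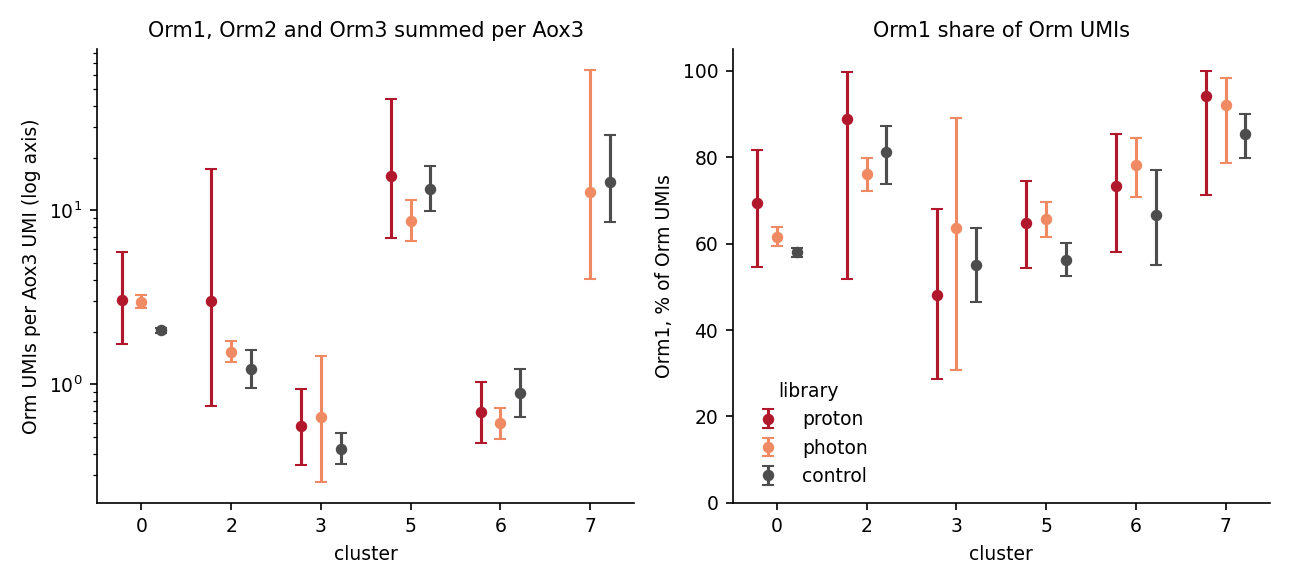
Left, Orm UMIs per Aox3 UMI (y axis, log scale) and right, Orm1 as a percent of Orm UMIs (y axis), in the 6 clusters present in all 3 libraries (x axis), for proton, photon and control with 95% intervals. Clusters 5 and 7 have the most Orm per Aox3 and clusters 3 and 6 the least in each library with a value, and Orm1 has its highest share in clusters 2 and 7 in proton and control.

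Over the 23 profiles of cluster and library with at least 100 cells, the genes most like Orm1 among 5812 measured were Zfp467 (Pearson r 0.90), Arfip1 (0.85), Ypel3 (0.82), Cebpd (0.82) and Ddx5 (0.80), and Orm3 had 0.87. Those most like Aox3 were Tm7sf3 (0.85), Spop (0.85), Camta1 (0.81), Ccn1 (0.80) and Emb (0.79), with 0.48 for Orm1 and 0.63 for Orm3. Fkbp5 had 0.77 with Orm3, 0.48 with Orm1 and 0.39 with Aox3. By Spearman's rho 3 of the 5 genes named for Orm1 and 1 of the 5 for Aox3 were again among the 5 most alike. These profiles share libraries and depth, so the coefficients are descriptions. Zfp467, a zinc finger factor, stood at 27.3, 34.2 and 62.9 CPM in proton, photon and control, and Cebpd, a C/EBP factor of the acute phase, at 130, 227 and 271 CPM.

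Other acute phase proteins were mixed. Of 30 listed genes, 8 reached 25 CPM over proton and control and 8 over photon and control. Of these, 1 was at least 1.5-fold lower and 1 higher in proton, and 1 lower and 0 higher in photon, where all genes had 14.9% lower and 10.8% higher in proton and 8.19% and 5.75% in photon. Their median log2 ratios, over genes with a mean of 5 CPM or more, were -0.03 and -0.29, where all genes had 0.03 and -0.12. Lbp, which binds bacterial lipopolysaccharide, stood at 186, 173 and 311 CPM in proton, photon and control, the complement component C3 at 91.6, 41.8 and 51.3 CPM and haptoglobin (Hp) at 43.7, 75.9 and 63.2 CPM. Lcn2, a lipocalin that binds iron siderophores and the only gene of 12 listed lipocalins to reach 25 CPM, stood at 1732, 1732 and 2506 CPM, or 0.691 (0.685 to 0.698) of control in proton and 0.691 (0.685 to 0.698) in photon.

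Of 23 genes of interleukin 6, interleukin 1 and STAT3 signalling, 9 reached 25 CPM over proton and control, with 3 lower and 1 higher in proton, and 9 over photon and control, with 1 lower and 0 higher in photon. All genes had 14.9% lower and 10.8% higher in proton, and 8.19% and 5.75% in photon. The median log2 ratios of the list were 0.15 and -0.26, beside 0.03 and -0.12 for all genes. The C/EBP factor Cebpb stood at 95.5, 163 and 243 CPM in proton, photon and control. Il6st, the shared receptor chain of interleukin 6 cytokines, stood at 63.2, 44.2 and 88.4 CPM, and the transcription factor Stat3 at 134, 91.0 and 119 CPM. Nfkbia, the inhibitor of NF-kappa-B, stood at 164, 312 and 344 CPM.

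Of 20 genes of the glucocorticoid receptor and its targets, 13 reached 25 CPM over proton and control, and 10 were at least 1.5-fold lower and 0 higher in proton. Of 13 over photon and control, 5 were lower and 0 higher in photon. Among all genes these shares were 14.9% lower and 10.8% higher in proton, and 8.19% and 5.75% in photon. The list had median log2 ratios of -0.87 and -0.34, and all genes 0.03 and -0.12. The phosphatase Dusp1 stood at 10.5, 36.2 and 40.2 CPM, and the feedback inhibitor Errfi1 at 181, 233 and 559 CPM. The kinase Sgk1 stood at 129, 207 and 341 CPM, and Tsc22d3, which encodes the mediator GILZ, at 35.2, 48.3 and 80.1 CPM. Each of these was lower in proton than in photon. Others of the list were higher, Fkbp5 among them at 1.28 (1.23 to 1.34) of its photon level. Of 11 listed genes that reached 25 CPM over proton and photon, 3 were at least 1.5-fold lower and 0 higher in proton. All genes had 16.3% lower and 22.7% higher in that comparison. The receptor gene Nr3c1 stood at 85.5, 69.5 and 81.6 CPM, or 1.05 (0.998 to 1.10) of control in proton and 0.852 (0.811 to 0.895) in photon.

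Of the other aldehyde oxidases, Aox1 differed in direction between the irradiated libraries and Aox4 was lower in both. Aox1 stood at 69.7, 39.2 and 53.6 CPM in proton, photon and control, or 1.30 (1.23 to 1.38) of control in proton and 0.733 (0.688 to 0.780) in photon. Aox4 stood at 1.47, 0.810 and 3.34 CPM, or 0.441 (0.315 to 0.609) of control in proton and 0.242 (0.164 to 0.350) in photon, and Aox2 at 0.218, 0.234 and 0.354 CPM. Xdh, the related xanthine dehydrogenase, stood at 219, 162 and 296 CPM. Of 12 genes of these enzymes and their cofactor, 5 reached 25 CPM over proton and control, with 2 lower and 0 higher in proton, and 5 over photon and control, with 2 lower and 0 higher in photon. The shares of all genes were 14.9% lower and 10.8% higher in proton, and 8.19% and 5.75% in photon. Median log2 ratios were 0.16 and -0.45 for the list and 0.03 and -0.12 for all genes. Gphn, which makes the cofactor, stood at 387, 213 and 345 CPM. Mocs2, of the same synthesis, was measured at 40.9, 77.7 and 64.4 CPM, and Marc2, a molybdenum enzyme of mitochondria, had 59.1, 115 and 98.3 CPM.

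Of 17 genes of retinoid metabolism, 6 reached 25 CPM over proton and control, with 1 lower and 1 higher in proton, and 6 over photon and control, with 2 lower and 0 higher in photon. The 1 of 6 in each direction in proton is near the 14.9% and 10.8% of all genes, and 8.19% and 5.75% of all genes were lower and higher in photon. The median log2 ratios were -0.32 and -0.13, against 0.03 and -0.12 for all genes. Dhrs3, which reduces retinal, stood at 190, 179 and 346 CPM, the retinol receptor Stra6 at 126, 86.8 and 59.2 CPM, the retinoic acid receptor Rarb at 59.5, 44.7 and 80.7 CPM and the retinol dehydrogenase Rdh10 at 43.7, 35.2 and 52.4 CPM.

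Of the relatives of Itih5, which stood at 4.17, 4.54 and 21.9 CPM, Itih2 lay above it in proton and photon and below it in control. Itih1, Itih3 and Itih4 lay below Itih5 in each library. Itih2 stood at 7.85, 7.65 and 10.9 CPM, Itih4 at 0.354, 0.192 and 0.835 CPM and Itih3 at 0, 0.0213 and 0.127 CPM in proton, photon and control, and Itih1 had 0 UMIs. Of 14 genes of these inhibitors and of hyaluronan, 2 reached 25 CPM over proton and control, with 2 higher and 0 lower in proton, and 3 over photon and control, with 2 higher and 0 lower in photon. Of all genes, 10.8% were higher and 14.9% lower in proton, and 5.75% and 8.19% in photon. The list's median log2 ratios of 0.84 and 0.34 stand beside 0.03 and -0.12 for all genes. Hmmr, a hyaluronan binding protein of the mitotic spindle, stood at 26.3, 42.4 and 8.07 CPM. Has2, which makes hyaluronan, stood at 107, 83.9 and 44.8 CPM, and the hyaluronan receptor Cd44 at 414, 277 and 185 CPM.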

How the data were processed

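Gene by cell UMI counts of 3 libraries were analysed as the authors deposited them. Cell Ranger 7.0.1 and mm10 are named per the submitters' processing notes, while the file headers name 7.0.0. The annotation release and the treatment of introns were not given in the sources. The 5 genes and all gene lists were chosen with earlier results of these data known. From each list the text names up to 4 genes with the largest log2 ratios to control, and the closest paralogs or partners of the members.

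Cells with at least 500 genes and at most 20% mitochondrial UMIs were kept. Scrublet marked 0 cells in each library, below the 0.5% at which a caller counts as working, so no doublets were removed. CPM are the summed counts of kept cells divided by all their UMIs. Levels have exact Poisson intervals, ratios exact conditional binomial intervals and shares Clopper-Pearson intervals, all at 95%. Cells were thinned to 2000 UMIs by drawing without replacement. A count of 3 UMIs, the limit that a count of 0 allows, equals 0.0818 CPM in proton, 0.0639 in photon and 0.0759 in control. With 1 library per group no test was made. Libraries were taken from the labels. The work on all conditions took place on 1 day, per the labels' protocols.

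Clusters (scanpy 1.11.5, leidenalg 0.10.2, resolution 0.5) used 2000 variable genes, 30 principal components and 20 neighbours, without 624 left-out genes. Python 3.11.15, numpy 2.4.6 and scipy 1.17.1 were used, and the ratio intervals were tested on simulated data. Alternatives were a stricter cell filter, another scaling, equal weights for cells or clusters, thinning and the removal of the cells with the highest doublet scores.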

Additional observations from a re-analysis of the deposited data

Results flagged for a closer look

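The ratio of proton to photon ran in opposite directions in different clusters, with intervals on either side of 1. Aox3 had a ratio of 1.49 (1.12 to 1.97) in cluster 6. In cluster 5 its ratio was 0.227 (0.0802 to 0.522), with 6 Aox3 UMIs in proton. Cluster 4 gave 0.324 (0.142 to 0.911), with 6 Aox3 UMIs in 138 photon cells. Orm1 had 1.62 (1.07 to 2.41) in cluster 6, against 0.405 (0.303 to 0.533) in cluster 5. The difference between clusters was not tested, and each value compares 1 library with 1 other.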

How the results depend on the processing

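All 42 alternatives of the 6 ratios to control kept the direction, and 24 of them moved the value beyond its counting interval. The log2 ratios below are given for proton and then photon. The Orm sum, -2.47 and -2.04 as reported, was -2.78 and -2.28 with the stricter cell filter, -2.02 and -1.56 with every cell weighted equally, -1.49 and -1.48 with an equal cluster mixture, and -2.90 and -2.46 after thinning to 2000 UMIs. Aox3, -2.78 and -2.27 as reported, was -3.17 and -2.52, -2.42 and -1.96, -1.31 and -1.49, and -3.23 and -2.68 under the same settings. Median of ratios scaling gave -1.94 for the Orm sum and -2.17 for Aox3 in photon. Itih5, -2.39 and -2.27 as reported, was -1.09 and -1.73 with an equal cluster mixture and -2.92 and -2.76 after thinning, and in proton -2.71 with the stricter filter and -2.02 with cells weighted equally. Leaving out the 10% of cells with the highest doublet scores, chosen after seeing the data, moved none of the 6 beyond its interval.

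Median of ratios scaling gave 268 genes at least 1.5-fold lower and 441 higher in photon than in control (474 and 333 as reported), 814 and 688 in proton against control (874 and 633), and 1133 and 1061 in proton against photon (948 and 1318). With a mean of 5 CPM in place of 25 the counts were 954 and 744, 1517 and 1448, and 1418 and 2258. Of the 5 genes named as most like Orm1 and Aox3, 3 and 1 were again among the 5 highest by Spearman's rho. Control kept the highest share of all 5 genes at 1000, 2000 and 4000 UMIs per cell. No paired analysis was possible because each group has 1 library. Depth limits Orm2, and Itih5 within clusters.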
